A study of Mus musculus with 6 samples.

Results

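The genes described here are 9 genes of myeloid granule and inflammatory proteins (Prtn3, Elane, Mpo, Ctsg, Cfd, Ms4a3, Lyz2, S100a8 and S100a9) and Plppr3, whose start lies 5.03 kb from that of Prtn3. They were taken by symbol, 10 of the 24091 genes in the deposited count table, and all 10 were found there. The genes were chosen by their counts in these same aged and young libraries, whose differences were already known, so their values by age are given as a description, with no test. The RNA came from wild-type mouse hematopoietic stem cells, sorted as cells that lack lineage markers and CD48 and carry Sca-1, c-Kit and CD150. Aged cells were from mice of 20 months (3 libraries, here aged 1, aged 2 and aged 3), and young cells were from mice of 2 months (3 libraries, young 4, young 5 and young 6). The study's design names 4 aged and 30 young mice, pooled. It does not say whether these numbers hold for each library, so the spread given here is between pools and may be partly technical. Strain and treatment are not named in the labels.

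Neutrophils and monocytes carry granules packed with enzymes that kill and digest microbes. The first of these granules form in early myeloid progenitors. They hold the serine proteases proteinase 3 (Prtn3), neutrophil elastase (Elane) and cathepsin G (Ctsg) beside myeloperoxidase (Mpo). The genes of these proteins are usually read together in granulocyte and monocyte progenitors, and low levels of them in stem cells are often called myeloid priming. Prtn3, Elane and the gene of complement factor D (Cfd) lie side by side on mouse chromosome 10. Plppr3, which encodes a membrane protein related to lipid phosphatases and is best known from neurons, starts on the other side of Prtn3 and is transcribed away from it.

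The upstream sequences of 4 of the genes are shown because Prtn3 and Elane, neighbours with very different levels in these cells, share short stretches there, while Mpo, a granule gene on another chromosome, and Plppr3, the neighbour of Prtn3 with a similar difference between ages, do not share both. Each is the 250 bases before the RefSeq start (build GRCm38.p6, which is mm10), 5′ to 3′ along the gene. The windows are chr10:79879417-79879666 on the plus strand for Prtn3, chr10:79886062-79886311 on the plus strand for Elane, chr11:87793534-87793783 on the plus strand for Mpo and chr10:79874635-79874884 on the minus strand for Plppr3. GENCODE M21, another annotation of this build, begins coding transcripts of Prtn3 at 79879614, of Elane at 79886247 and of Mpo at 87793581. These starts lie inside the windows, so part of each of the 3 windows is transcribed by that annotation. Capitals mark matches, on either strand, to GAGGAAGT (letters of sites of PU.1, a transcription factor of myeloid and other blood cells), CAACNG (Myb, a factor of blood progenitors), TTNNGNAA (C/EBP factors) or TGTGGT (RUNX factors).
Prtn3: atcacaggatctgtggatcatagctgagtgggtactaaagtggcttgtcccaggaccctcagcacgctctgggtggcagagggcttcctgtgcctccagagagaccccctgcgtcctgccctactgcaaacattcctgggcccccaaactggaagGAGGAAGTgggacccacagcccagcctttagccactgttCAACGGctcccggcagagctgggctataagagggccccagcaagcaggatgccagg
Elane: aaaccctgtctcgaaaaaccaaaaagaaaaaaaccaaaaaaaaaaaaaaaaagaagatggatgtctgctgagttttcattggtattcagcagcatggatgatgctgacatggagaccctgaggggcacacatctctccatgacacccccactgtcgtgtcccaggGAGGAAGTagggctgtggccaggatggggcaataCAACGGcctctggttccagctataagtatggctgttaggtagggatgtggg
Mpo: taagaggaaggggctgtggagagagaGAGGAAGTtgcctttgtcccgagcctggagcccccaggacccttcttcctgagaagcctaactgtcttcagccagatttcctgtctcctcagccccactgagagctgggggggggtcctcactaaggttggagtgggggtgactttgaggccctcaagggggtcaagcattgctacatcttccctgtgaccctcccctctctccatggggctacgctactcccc
Plppr3: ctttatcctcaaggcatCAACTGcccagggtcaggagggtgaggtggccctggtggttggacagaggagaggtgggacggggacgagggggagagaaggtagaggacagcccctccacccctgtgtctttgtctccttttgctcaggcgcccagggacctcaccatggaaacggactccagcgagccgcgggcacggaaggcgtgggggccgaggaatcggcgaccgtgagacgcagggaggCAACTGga

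The Prtn3 and Elane windows held the same 2 matches in the same order, GAGGAAGT and then CAACGG. The first bases of these lay at -95 and -56 in Prtn3 and at -85 and -51 in Elane, counted back from the RefSeq start. Positions counted from the GENCODE starts would be different. All 10 genes had a RefSeq window of this kind, and GAGGAAGT was in 4 of them (Prtn3, Elane, Mpo and S100a8), against 2.44% of all 32851 windows. CAACNG was in 6 of the 10 and 29.3% of all windows, TTNNGNAA in 4 and 36.8%, and TGTGGT in 3 and 14%. Both GAGGAAGT and CAACNG were in 2 of the 10 (Prtn3 and Elane) and in 0.676% of all windows. The letters searched for were not part of the planned comparisons, so nothing is read from these shares. A match is a description of the letters and not a binding site. Genes of all these factors were measured in the same libraries, and some are named here for their role, after their values were seen. Spi1, which encodes PU.1, stood at 64.6 ± 9.09 CPM (read counts scaled for library size) in aged and 60.3 ± 13.9 CPM in young cells (SD, n = 3 each), and its fitted difference did not pass the test (adjusted p = 0.797, edgeR's quasi-likelihood test). Myb stood at 222 ± 42.3 CPM in the aged pools and 334 ± 97.5 CPM in the young pools and did not pass either (adjusted p = 0.208, edgeR). Cebpa, which encodes the C/EBP factor of early granulocyte progenitors, had 7 to 17 counts in the aged and 4 to 14 counts in the young libraries and was too low to be tested.

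Gene counts summed to between 16452829 and 21918658 per library, and a count of 0 allows up to 3 counts, or 0.132 to 0.239 CPM. Young 4 stood apart from the other young libraries (Pearson's r of log2 CPM across genes 0.951 and 0.948, against 0.989 between young 5 and young 6; genes are not independent replicates), with 4.06% of its counts from Actb, against 0.555% to 1.36% in the other 5 libraries. No pair of libraries agreed within sampling noise. Aged 2 was unusual in how many genes were detected: 20918, while elsewhere the number ran from 16084 (young 4) to 17057 (aged 3). The cause was not tested, so low counts seen mainly in aged 2 are not read as a difference by age. Stem cell markers were present in every library: Kit, Slamf1, Ly6a, Procr, Hlf, Mecom, Fgd5 and Hoxb5 each had at least 595 counts in every aged and at least 214 counts in every young library. Kit, Slamf1 and Ly6a encode proteins used for the sort. Cd48, whose protein the sort removes, was not absent: it stood at 0.511 to 2.54 CPM in aged and 8.59 to 14.5 CPM in young libraries. Flt3 and Cd34 were also higher in young cells, as given below. The 9 defining markers of late neutrophils (Ltf, Camp, Ngp, Lcn2, Mmp8, Cd177, Retnlg, Cxcr2 and Ly6g) summed to 2.28 to 4.80 CPM in aged and 2.32 to 2.89 CPM in young libraries, and Cd177 had at most 3 counts in every library. The 4.80 CPM was in aged 2. The markers of monocytes and macrophages summed to 31.3 to 33.2 CPM in aged and 32.5 to 61.1 CPM in young libraries. Those of eosinophils, basophils and mast cells summed to 1.10 to 3.25 CPM in aged and 0.0498 to 15.7 CPM in young libraries. The 15.7 CPM was in young 6. Prss34, a gene of these cells that was not among the summed markers, was higher than that in some libraries. It stood at 0.575, 17.0 and 8.36 CPM in aged 1, aged 2 and aged 3. In young 4, young 5 and young 6 it stood at 17.2, 0.199 and 85.2 CPM.

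Of the granule proteases among the genes described here, Prtn3 had the highest level in both ages. It was also the one that differed between ages well beyond the spread of the libraries. It stood at 429, 419 and 464 CPM in aged 1, aged 2 and aged 3, against 105, 103 and 99.7 CPM in young 4, young 5 and young 6. The groups were far apart, and the spread inside each was small: the coefficient of variation was 5.32% in aged and 2.74% in young libraries. The fitted difference was 2.09 ± 0.16 (log2 fold change, aged minus young, ± SE), or 4.26-fold. It ran from 2.05 to 2.10 with each of the 6 libraries left out in turn. Per length, Prtn3 was at 428 CPM per kb in aged and 101 CPM per kb in young cells. This placed it 114th of the 13413 genes tested in aged cells and 1016th in young cells. The gene occupies chromosome 10, 79879667 to 79883172, on the plus strand (mm10).

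**Figure D1:**
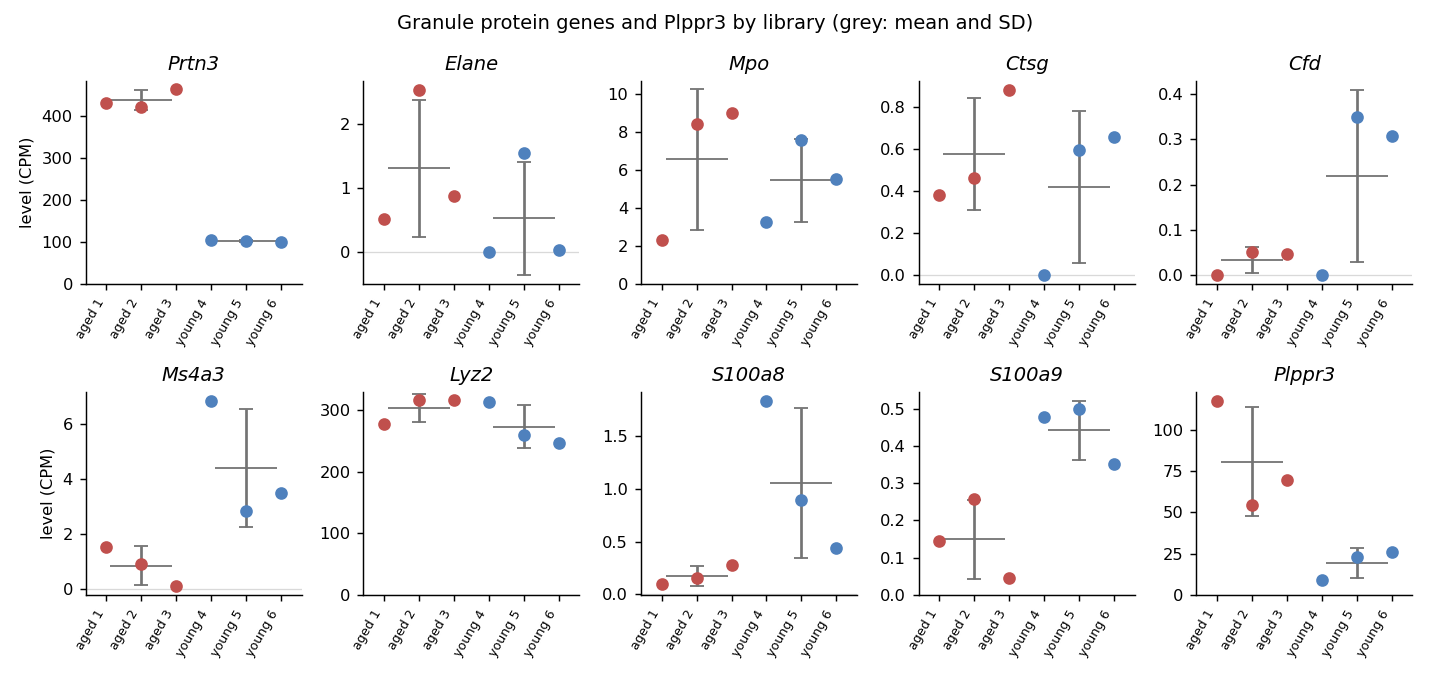
Level of each gene in CPM (vertical axes, each from 0) in the 3 aged (red) and 3 young (blue) libraries, with the mean and SD of each group in grey. Prtn3 stood at 419 to 464 CPM in aged and 99.7 to 105 CPM in young libraries and Plppr3 at 54.5 to 118 and 8.98 to 25.9 CPM, while Lyz2 overlapped between ages and the other genes stayed below 10 CPM.

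The other granule proteases among the genes described here were far below this level, and none was set apart between ages beyond the spread of its libraries. Elane, 3.14 kb downstream of Prtn3 (chromosome 10, 79886312 to 79888216, plus strand), had 11, 49 and 19 counts in aged 1, aged 2 and aged 3, against 0, 31 and 1 counts in young 4, young 5 and young 6. These correspond to 0.527, 2.53 and 0.882 CPM in the aged and 0, 1.54 and 0.0438 CPM in the young libraries. The groups overlapped because of young 5, and the fitted log2 fold change of 1.22 ± 1.21 was about the size of its error. It was 5.26 without young 5 and 0.32 without aged 2. Whether Elane differs by as much as Prtn3 cannot be told from these counts.

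Ctsg, which encodes cathepsin G (chromosome 14, 56099885 to 56102574, minus strand), had 8, 9 and 19 counts in the aged libraries, against 0, 12 and 15 counts in the young libraries. The groups overlapped, and the log2 fold change was 0.35 ± 0.82, from -0.14 without young 4 to 0.78 without young 6. Cfd, which encodes a serine protease of the alternative complement pathway (chromosome 10, 79890853 to 79892660, plus strand), had 0, 1 and 1 counts in the aged libraries, against 0, 7 and 7 counts in the young libraries. These counts are near the limit of detection, and Cfd was not tested.

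Mpo encodes myeloperoxidase, the haem enzyme of the same granules, which makes hypochlorous acid (chromosome 11, 87793784 to 87804412, plus strand). It stood at 2.30, 8.41 and 9.01 CPM in aged 1, aged 2 and aged 3, against 3.26, 7.57 and 5.52 CPM in young 4, young 5 and young 6. Each age had 1 low library, aged 1 and young 4, and the groups overlapped fully. The log2 fold change was 0.26 ± 0.54, and it ran from -0.036 without aged 3 to 0.66 without aged 1. The related peroxidase genes Epx and Lpo had at most 6 counts in any library. Elane, Mpo and Ctsg together summed to 3.21, 11.4 and 10.8 CPM in the aged libraries, against 3.26, 9.72 and 6.23 CPM in the young libraries, so aged 1 and young 4 were low for this sum as well. Prtn3 was not low in either of these libraries.

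Ms4a3, which encodes a membrane protein of granulocyte and monocyte progenitors, was lower in the aged libraries (chromosome 19, 11629499 to 11640851, minus strand). It stood at 1.53, 0.929 and 0.139 CPM in aged 1, aged 2 and aged 3, against 6.84, 2.84 and 3.51 CPM in young 4, young 5 and young 6. The groups did not overlap, and the log2 fold change was -2.32 ± 0.72, a difference that ran from -3.04 without aged 1 to -1.81 without aged 3. In bulk RNA, fewer cells of a type and less RNA per cell cannot be told apart. Cd48, a gene of progenitors that the sort removes, moved the same way: it stood at 2.54, 1.14 and 0.511 CPM in aged 1, aged 2 and aged 3, against 14.5, 9.47 and 8.59 CPM in young 4, young 5 and young 6. Its part in the values of Ms4a3 was not tested.

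S100a8 and S100a9 encode both subunits of calprotectin, a protein that neutrophils hold in large amounts in the cytosol. S100a8 (chromosome 3, 90669071 to 90670034, plus strand) had 2, 3 and 6 counts in the aged libraries, against 23, 18 and 10 counts in the young libraries. S100a9 (chromosome 3, 90692630 to 90695721, minus strand) had 3, 5 and 1 counts in the aged libraries, against 6, 10 and 8 counts in the young libraries. Neither gene overlapped between the groups in CPM, but both were too low to be tested and no fold is given. Some other S100 genes were far above them and others as low: S100a6, a calcium-binding protein gene of many cell types, stood at 70.3 ± 6.47 CPM in the aged pools and 40.8 ± 12.9 CPM in the young pools (adjusted p = 0.101, edgeR), and S100a10 at 60.5 ± 2.42 CPM in the aged pools and 90.3 ± 19.5 CPM in the young pools (adjusted p = 0.120, edgeR).

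Lyz2, which encodes the lysozyme of phagocytes and breaks bacterial cell walls, was the only other granule gene at a level like that of Prtn3 (chromosome 10, 117277541 to 117282272, minus strand). It stood at 277, 316 and 316 CPM in aged 1, aged 2 and aged 3, against 313, 259 and 247 CPM in young 4, young 5 and young 6. The groups overlapped, with young 4 inside the aged range, and the log2 fold change was 0.15 ± 0.17. Lyz1, its near-identical neighbour, had at most 7 counts in any library, and reads that match both genes may have been split or lost in the authors' counting.

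On the scale of CPM per kb, Prtn3 came first in aged cells, before Lyz2, at 411 to 454 and 263 to 300 CPM per kb, and the ranges did not meet. In young cells the order was turned: Lyz2 came first at 234 to 298 CPM per kb and Prtn3 second at 97.6 to 103 CPM per kb. Plppr3 came next in both ages, at 12.8 to 27.6 CPM per kb in aged and 2.11 to 6.07 CPM per kb in young libraries. The other 7 genes lay below it in aged cells, from Mpo (0.909 to 3.56 CPM per kb) through Elane, Ctsg, Ms4a3, S100a8 and S100a9 to Cfd. Neighbours in that order overlapped in range from Mpo down to S100a9. In young cells the order below Plppr3 was S100a8, Ms4a3, Mpo, S100a9, Elane, Ctsg and Cfd, and the range of Plppr3 overlapped that of S100a8. Prtn3 alone made up 52.7% of the summed CPM of the 10 genes in aged and 25.2% in young cells.

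**Figure D2:**
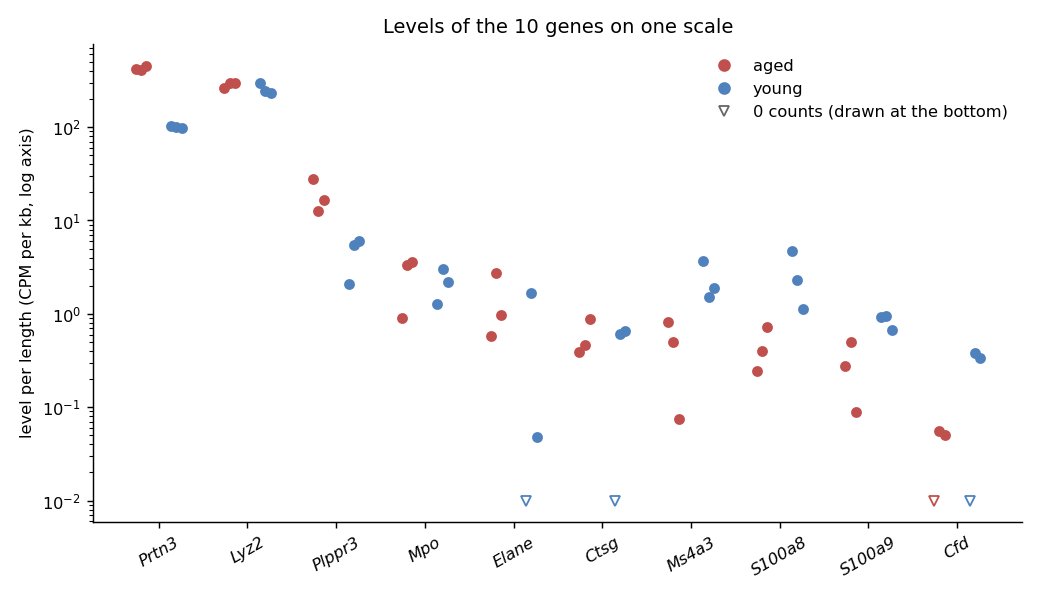
Level per length in CPM per kb on a log axis, for the 3 aged (red) and 3 young (blue) libraries, with genes in the order of their aged means and counts of 0 drawn as open triangles at the bottom. Prtn3 (411 to 454 CPM per kb in aged, 97.6 to 103 in young libraries) and Lyz2 stand far above the other granule genes shown in both ages.

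Plppr3 differed between ages by about as much as Prtn3 but with a wider spread (chromosome 10, 79860475 to 79874634, minus strand). It stood at 118, 54.5 and 69.9 CPM in aged 1, aged 2 and aged 3, against 8.98, 23.3 and 25.9 CPM in young 4, young 5 and young 6. The groups did not overlap, and aged 1 was the highest and young 4 the lowest library. The log2 fold change was 2.05 ± 0.45, or 4.15-fold, and it ran from 1.67 without aged 1 to 2.31 without young 6. With the trend of each library by gene length and GC content taken out it was 1.53. In the table the interval of Plppr3 ends 5032 bases before that of Prtn3 begins. GENCODE M21, on the same build, lists a noncoding transcript of Prtn3 from 79874476 on, which shares 159 bases with the first part of Plppr3 on the other strand. At its far end Plppr3 shares 3961 bases with Ptbp1, which runs the other way. The library kit does not mark strand, so reads in these stretches cannot be assigned to a strand, and which annotation the authors counted on is not given in the sources used here.

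Of the 13413 genes tested across the table, edgeR called 772 at an adjusted p below 0.05, which is 5.76% of them, with 4.26% higher and 1.50% lower in aged cells. Higher genes made up 74.0% of these calls, but 49.9% of 1415 calls with the trend by length and GC content taken out. Of the 10 genes described here, 7 had enough counts to be tested (Cfd, S100a8 and S100a9 did not), and 2 passed, Prtn3 and Plppr3, both higher. Since the genes were chosen with this comparison known, nothing is read from that count. Prtn3 passed with each library left out, and Plppr3 only without young 4: it did not pass without any one of aged 1, aged 2, aged 3, young 5 or young 6. By range alone, 5 of the 10 did not overlap between ages (Prtn3 and Plppr3 higher, Ms4a3, S100a8 and S100a9 lower), beside 25.5% of all genes with at least 1 count (14.3% higher and 11.3% lower).

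Around Prtn3, 1 further gene was called, and nothing is read from this count. Within 100 kb of Prtn3 the table listed 15 genes besides Prtn3, Elane, Cfd and Plppr3, of which 11 were tested. Of these 11, none was called lower and 1 was called higher, beside 5.76% called in either direction over all genes tested. That gene was Kiss1r, which encodes the kisspeptin receptor and starts 37.3 kb from the start of Prtn3 (chromosome 10, 79916971 to 79922272, plus strand). It stood at 6.14, 2.22 and 5.01 CPM in aged 1, aged 2 and aged 3, against 0.159, 0.249 and 0.438 CPM in young 4, young 5 and young 6, with 2 to 10 counts in each young library. The groups did not overlap, and the log2 fold change was 3.88 ± 0.56 (adjusted p = 0.0167, edgeR). This call was lost without aged 3, young 5 or young 6.

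The other genes tested in this window did not pass. Ptbp1, a splicing regulator gene next to Plppr3, stood at 187, 118 and 120 CPM in aged 1, aged 2 and aged 3, against 130, 184 and 171 CPM in young 4, young 5 and young 6. With the trend by length and GC content taken out, edgeR called it lower (log2 fold change -0.63, adjusted p = 0.0398). Med16, a Mediator subunit gene just past Cfd, had a log2 fold change of 0.41 ± 0.38, and R3hdm4, which lies between Med16 and Kiss1r, 0.41 ± 0.33. Prss57, the gene of a further serine protease of neutrophil granules 90.6 kb away, stood at 5.03, 4.44 and 2.18 CPM in the aged libraries, against 9.62, 4.53 and 5.92 CPM in the young libraries, with a log2 fold change of -0.78 ± 0.42. The median log2 fold change of the 11 tested neighbours was 0.41, beside 0.04 for all genes tested. It was 0.16 without aged 1 and 0.098 without young 4, and with the trend by length and GC content taken out it was -0.090, beside -0.079 for all genes. Palm, E130317F20Rik, Arid3a, Wdr18, Grin3b and Tmem259 lay between -0.32 and 0.61, and Bc1, Fstl3, Misp and Mir6910 were too low to be tested.

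**Figure D3:**
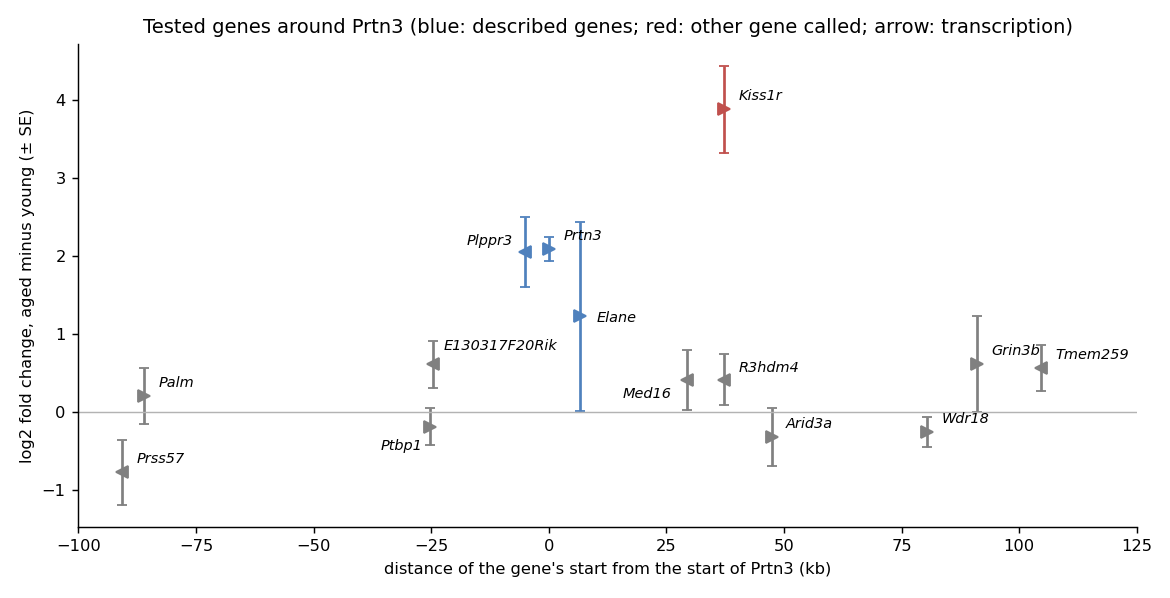
Log2 fold change (aged minus young, bars ± SE) of the tested genes within 100 kb of Prtn3 against the distance of their starts from that of Prtn3 in kb; triangles point in the direction of transcription, blue marks genes described without a test and red the other called gene. Plppr3 (2.05), Prtn3 (2.09) and Kiss1r (3.88) stand above the genes between and around them.

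The other myeloid genes moved in both directions. Outside the 10 genes, 14 lists held 184 genes of granule handling, myeloid progenitors, their regulators, stem cells and other cell types. Of these 119 were tested, and 13 were called higher and 7 lower in aged cells. Over all genes tested, 4.26% were called higher and 1.50% lower. The calls on the 14 lists include genes of the stem cell list, so not all are of myeloid genes. The genes of these lists, like the 10, were listed with earlier results of these data known. Of the 16 genes that activate, pack or inhibit granule proteases, all were tested, and 1 rose and none fell (median log2 fold change -0.017, beside 0.04 for all genes tested; 0.10 without young 4). Serpinb6a, a serpin gene, rose to 51.0 ± 0.965 CPM in aged cells, against 28.7 ± 4.85 CPM in young cells (adjusted p = 0.0422, edgeR). Ctsc and Srgn of this list are named for their role, after their values were seen. Ctsc, whose protease trims the granule serine proteases to their active forms, stood at 287 ± 70.7 CPM in the aged pools and 207 ± 48.0 CPM in the young pools (adjusted p = 0.285, edgeR). Srgn, the proteoglycan core that holds them in the granule, stood at 639 ± 71.3 CPM in the aged pools and 677 ± 134 CPM in the young pools (adjusted p = 0.819, edgeR).

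Of 22 genes of granulocyte and monocyte progenitors, 18 were tested, 1 rose and 3 fell, with a median log2 fold change of -0.85. Hk3, a hexokinase gene of myeloid cells, rose to 52.4, 37.8 and 54.3 CPM in aged 1, aged 2 and aged 3, against 8.19, 12.5 and 15.4 CPM in young 4, young 5 and young 6. Its log2 fold change was 2.00 ± 0.28 (adjusted p = 0.0167, edgeR), close in size to that of Prtn3. Nkg7, a granule membrane protein gene of cytotoxic cells and progenitors, fell to 45.7, 33.4 and 17.5 CPM in aged cells, against 183, 98.9 and 107 CPM in young cells (log2 fold change -2.01 ± 0.40, adjusted p = 0.0382, edgeR). Tyrobp, a signalling adaptor gene of myeloid and natural killer cells, fell to 1.16 ± 0.197 CPM in aged cells, against 3.44 ± 0.287 CPM in young cells, and Cd34, a sialomucin gene, to 150 ± 16.3 CPM in aged cells, against 259 ± 22.6 CPM in young cells (adjusted p = 0.0321 and 0.0426, edgeR). At an unadjusted p under 0.05, 1 of the 18 was higher and 9 were lower, and DESeq2 called 1 higher and 7 lower.

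Of 18 myeloid transcription factor genes, 16 were tested, 2 rose and 1 fell (median -0.28). Cebpd, a C/EBP factor gene of stress and late granulocyte stages, rose to 7.19, 7.33 and 10.9 CPM in aged cells, against 0.636, 2.09 and 2.19 CPM in young cells (log2 fold change 2.33 ± 0.45, adjusted p = 0.0365, edgeR). Id2, an inhibitor of E proteins, rose to 38.3 ± 9.64 CPM in aged cells, against 13.4 ± 1.50 CPM in young cells (adjusted p = 0.0223, edgeR). Klf5, a Kruppel-like factor gene, fell to 1.08 ± 0.0769 CPM in aged cells, against 2.97 ± 0.202 CPM in young cells (adjusted p = 0.0346, edgeR). Of 8 growth factor receptor genes, all tested, 1 rose and 1 fell (median 0.42, but -0.14 without aged 1 and 0.088 without young 4). Csf3r, the receptor for G-CSF, rose to 79.0, 72.6 and 104 CPM in aged cells, against 17.2, 30.6 and 35.3 CPM in young cells (adjusted p = 0.0321, edgeR). Flt3, a receptor gene of early lymphoid and myeloid progenitors, fell to 7.48, 6.45 and 7.80 CPM in aged cells, against 12.7, 17.1 and 21.5 CPM in young cells (adjusted p = 0.0393, edgeR).

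Of 26 late neutrophil genes, 10 were tested, 2 rose and none fell (median 0.51, but -0.14 without aged 2 and 0.26 without young 6). By edgeR's unadjusted p under 0.05, 2 were higher and 2 were lower, and DESeq2 called 2 higher and 1 lower. Padi4, which encodes the enzyme that citrullinates histones in neutrophil traps, rose to 161, 114 and 182 CPM in aged 1, aged 2 and aged 3, against 20.0, 42.8 and 47.1 CPM in young 4, young 5 and young 6 (log2 fold change 2.05 ± 0.35, adjusted p = 0.0276, edgeR). Itgam, which encodes the integrin CD11b, rose to 33.0, 11.5 and 9.05 CPM in aged cells, against 1.75, 3.54 and 2.41 CPM in young cells (log2 fold change 2.78 ± 0.57, adjusted p = 0.0393, edgeR). Aged 1 was well above the other aged libraries for Itgam, and without it the log2 fold change was 1.98 and did not pass. Ltf, Camp, Ngp, Lcn2 and Mmp8 of the same list stayed at or below 1.65 CPM in every library. Ltf, which encodes lactoferrin, was at 0.719 to 1.65 CPM in aged and 0.249 to 0.954 CPM in young libraries. Other genes of this list were not low. Pglyrp1 stood at 28.3 ± 8.26 CPM in the aged pools and 15.7 ± 7.90 CPM in the young pools (adjusted p = 0.226, edgeR). Cyba stood at 186 ± 15.4 CPM in the aged pools and 275 ± 64.3 CPM in the young pools (adjusted p = 0.153, edgeR).

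**Figure D4:**
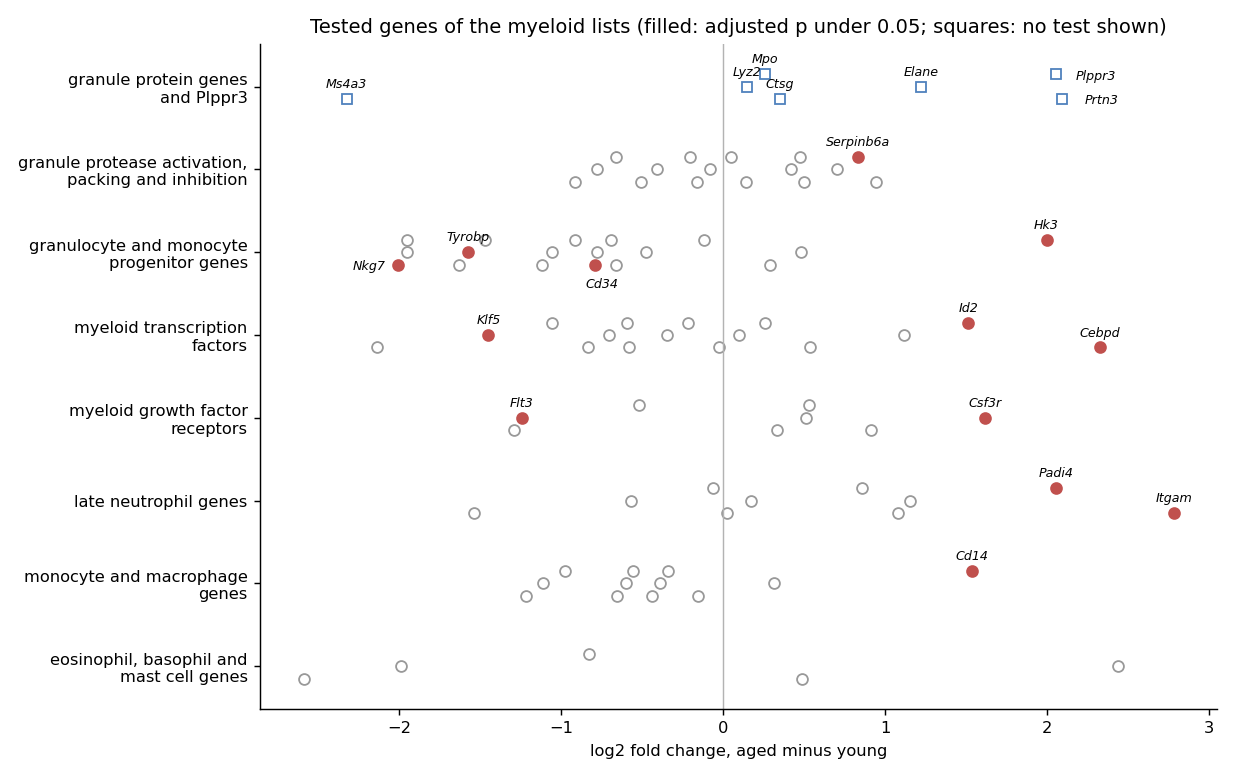
Log2 fold change (aged minus young, horizontal axis) of each tested gene, by list; filled circles were called by edgeR (adjusted p below 0.05), open circles were not, and squares are the genes described without a test. Prtn3 and Plppr3 stand near 2.1, as do Hk3 (2.00) and Padi4 (2.05), while Elane, Mpo, Ctsg and Lyz2 lie between 0.15 and 1.22 and Ms4a3 at -2.32.

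Most of these calls were lost when 1 library was left out. Serpinb6a, Nkg7, Tyrobp, Cd34, Cebpd, Klf5, Csf3r, Flt3, Padi4 and Cd14 each passed without young 4 and lost their call without any one of aged 1, aged 2, aged 3, young 5 or young 6. Hk3 lost it without aged 3 or young 5, Id2 without aged 2, aged 3, young 5 or young 6, and Itgam without any library. With no scaling beyond library size Tyrobp, Cd34, Klf5, Cebpd, Csf3r and Flt3 did not pass either, nor did Serpinb6a with the trend by length and GC content taken out or Itgam by limma-voom. None of them changed sign, and the fold moved by over 1.5 times for Itgam alone, without aged 1.

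Of 16 monocyte and macrophage genes, 12 were tested, 1 rose and none fell (median -0.50). By edgeR's unadjusted p under 0.05, 1 was higher and 3 were lower, and DESeq2 called 1 higher and 2 lower. Cd14, the co-receptor gene for endotoxin, rose to 4.94 ± 1.52 CPM in aged cells, against 1.72 ± 0.354 CPM in young cells (adjusted p = 0.0455, edgeR). None of the 5 tested genes of eosinophil, basophil and mast cell granules, out of 17, was called by edgeR (unadjusted p under 0.05 in 1, which was higher; 1 call by DESeq2 and 0 by limma-voom). Prg2, the eosinophil major basic protein gene, stood at 0.970 ± 0.273 CPM in the aged pools and 0.160 ± 0.166 CPM in the young pools (adjusted p = 0.0803, edgeR), and Cpa3, the mast cell carboxypeptidase gene, at 9.60 ± 3.63 CPM in the aged pools and 17.1 ± 6.81 CPM in the young pools (adjusted p = 0.241, edgeR). Among the other S100 genes, 7 of 14 were tested and 0 were called by edgeR (unadjusted p under 0.05 in 1 higher and 1 lower gene; 2 calls by DESeq2 and 0 by limma-voom). Among the other Ms4a genes, 5 of 14 were tested and 0 were called by edgeR (unadjusted p under 0.05 in 1, which was lower; 1 call by DESeq2 and 0 by limma-voom). Ms4a6c, a relative of Ms4a3 of myeloid cells, stood at 15.7, 11.5 and 6.08 CPM in aged 1, aged 2 and aged 3, against 43.0, 20.6 and 17.3 CPM in young 4, young 5 and young 6 (adjusted p = 0.148, edgeR), and Ms4a6d at 3.44 ± 0.381 CPM in the aged pools and 7.87 ± 6.13 CPM in the young pools (adjusted p = 0.213, edgeR).

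Genes of the sort and of stem cell identity differed as well. Procr, the endothelial protein C receptor gene of long-term stem cells, rose to 101, 103 and 136 CPM in aged cells, against 37.7, 40.6 and 42.4 CPM in young cells (adjusted p = 0.0106, edgeR; lost without young 5 or young 6). Ly6a, the gene of Sca-1, rose to 121 ± 50.8 CPM in aged cells, against 39.9 ± 9.58 CPM in young cells (adjusted p = 0.0435, edgeR; lost with any library but young 4 left out). Kit (976 ± 99.0 CPM in the aged pools, 632 ± 282 CPM in the young pools) and Slamf1, the gene of CD150 (98.8 ± 18.9 CPM in the aged pools, 64.3 ± 1.95 CPM in the young pools), did not pass. Cd48 fell (adjusted p = 0.0345, edgeR) and was called only without aged 1 or young 4 when a library was left out, with a log2 fold change of -3.72 without aged 1 and -2.95 with all libraries. Of the markers of other lineages, 1 of 1 tested gene of T and NK cells was called, Cd4, which fell to 0.279 ± 0.119 CPM in aged cells, against 3.09 ± 0.956 CPM in young cells (adjusted p = 0.0145, edgeR; lost without aged 3, young 5 or young 6). No tested gene of B cells (2), erythroid cells (8) or endothelium (4) was called by edgeR. At an unadjusted p under 0.05, 1, 2 and 1 of these were higher and 0, 3 and 0 lower, DESeq2 called 1, 2 and 1 higher and 0, 2 and 0 lower, and limma-voom called 1 B cell gene higher.

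The genes whose pattern over the 6 libraries was nearest to that of Prtn3, by the root mean square difference of log2 CPM centred on each gene's mean, were Gadd45g (0.115), Alcam (0.138), Veph1 (0.140), Arhgef28 (0.166) and Kcnip3 (0.173). None of them is a granule gene. Gadd45g, a stress-inducible growth arrest gene, stood at 123 ± 14.1 CPM in the aged pools and 31.3 ± 3.79 CPM in the young pools, and Alcam, an adhesion molecule gene, at 92.4 ± 19.3 CPM in the aged pools and 21.0 ± 1.84 CPM in the young pools. The nearest to Mpo were Mmp21 (0.220), Gfra4 (0.303), Rps6kl1 (0.310), Snora34 (0.313) and Camsap2 (0.330), at larger distances and with small differences between ages. These genes had few counts, from 1 (Mmp21 in aged 1) to 48 (Gfra4 in aged 3) per library. Their patterns may be counting noise, and no shared regulation is read from them.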

How the data were processed

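The values are raw gene-level read counts, whole numbers with no scaling, in a single table deposited with each gene's coordinates, strand and length. Trimmomatic, STAR 2.6.0, HTSeq 0.11.1, edgeR and build mm10 are named in the submitters' processing notes. Libraries were prepared with SMART-Seq v4, per the labels' protocols, a kit that does not mark strand. The sources used here give neither settings nor annotation. Sample titles gave each library's age group and number, and all 6 count columns were matched by library name.

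Differences were fitted in R 4.3.3 by edgeR 4.0.16 (glmQLFit and glmQLFTest after filterByExpr and TMM scaling) on all 6 libraries with age as the only term, and p-values were adjusted by Benjamini-Hochberg over 13413 genes. These held 99.92% of the counts, and totals ran from 16452829 to 21918658. CPM uses TMM-scaled library sizes with no pseudocount. Log2 fold changes are aged minus young; their SE is the unshrunk coefficient divided by the square root of F. PCR copies of a molecule are not independent, so limits from counts of 0 cover counting error alone.

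The genes described and all lists were chosen with earlier results of these data known. Named list genes were up to 4 called genes with the smallest p in each list, or the 2 with the smallest p where none was called; of these Fgd5, Cd79a, Cd79b, Hba-a2, Hbb-bs, Kdr and Pecam1 are left out for length. Genes within 100 kb of Prtn3, the sort markers, paralogs and the 5 genes nearest in pattern to Prtn3 and to Mpo were named as well. Alternatives were other scalings, filters, DESeq2 1.42.0, limma-voom (limma 3.58.1), removal of genes above 1% of a library, a correction for length and GC content (from GENCODE M21 transcripts, found for 98.0% of genes) and leaving out each library. The fit was tested on simulated data. Upstream sequences are from RefSeq (GRCm38.p6). The summed level and the count of calls over the stem cell markers are not reported here.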

Additional observations from a re-analysis of the deposited data

How the results depend on the processing

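No paired analysis was possible because the aged samples (1 to 3) and the young samples (4 to 6) share no replicate number. Prtn3 was called and higher in aged cells under all 15 alternatives, which adds no support, since it was chosen with this comparison known. Plppr3 was higher under all of them, but of the 10 genes 1, Prtn3, was called with no scaling beyond library size and at 5 CPM or more in 3 libraries, and 1 to 2 with a library left out; DESeq2 also called Ms4a3 lower. Over all genes the 772 calls became 443 at 5 CPM or more, 1415 with the length and GC trend taken out, 2181 with DESeq2 and 74 (without young 5) to 1029 (without young 4) with a library left out. The 20 calls on the other lists became 43 with DESeq2 and 0 (without young 5) to 22 (without young 4) with a library left out; they were 14 with no scaling and 14 at 5 CPM or more. Beside the losses named above, Serpinb6a was lost with no filter, Cd34 with upper-quartile scaling and at 5 CPM or more, and Flt3 at 5 CPM or more. With no scaling the median log2 fold change of all genes was 0.20, and with the trend taken out -0.079, against 0.04; that of Prtn3 was then 2.26 and 1.89. Genes not called changed sign: Med16 (-0.090), Palm (-0.43) and Gfra4 (-0.11) with the trend taken out, and Mmp21 (-0.30) with limma-voom. With a library left out Mpo ran from -0.036 to 0.66, Ctsg from -0.14 to 0.78, Arid3a from -0.56 to 0.063, Palm from -0.12 to 0.46, Mmp21 from -0.27 to 0.72, Gfra4 from -0.25 to 0.49, Rps6kl1 from -0.63 to 0.092 and Snora34 from -0.082 to 0.97. The causes of these changes were not tested. Ctsg, Cfd, S100a8 and S100a9 had at most 23 counts in any library, and Elane varied between libraries of one age from 0 to 31 counts.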
